A study of Mus musculus with 12 samples.

Results

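The regions described here are the places on the mouse autosomes where FLAG-Zscan4 was listed inside a long non-coding RNA (lncRNA) gene and outside every protein-coding gene. They were chosen by position only: the midpoint of the region had to lie on chromosomes 1 to 19, within a gene of the biotype lncRNA, and within no protein-coding gene of the RefSeq table for GRCm38, the assembly of mm10. This rule found 370 regions of 4973 in the whole list and of 4759 on the 19 autosomes. They sit in 333 lncRNA genes, of which 264 carry only a predicted-gene symbol of the Gm series and 52 a symbol of the Rik clone series.

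The cells were J1 mouse embryonic stem (ES) cells, given in the labels with the strain 12910la, that carried a plasmid with the coding sequence of Zscan4c behind a FLAG tag (genotype Zscan4 overexpression). They had received 1000 ng of plasmid and were selected from 24 h onwards for 10 days with 500 ug/ml G418, after which single clones were picked, so the cells are clonal, and they keep their own copies of Zscan4c. The list came from 1 anti-FLAG immunoprecipitation, OE_Zscan4. Its input, OE_Input, came from cells of the same genotype, and whether it entered the calls is not stated in what was used here. The other 10 samples, immunoprecipitations of H3K27ac, H3K14ac and H3K4me1 from overexpressing and wild-type cells with their inputs, were not analysed here. Each group had a single sample, the file holds no read counts, and depth is unknown. Every statement below therefore describes 1 list, with no test of a condition, and the intervals cover counting error only.

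Zscan4c belongs to the SCAN-domain zinc finger proteins and is active when the mouse embryonic genome is first switched on and, briefly, in a few ES cells in culture. LncRNA genes are transcribed like protein-coding genes but their RNA is not translated. Some act on chromatin near where they are made, many overlap or flank developmental regulators, and most in the mouse annotation have no known role. A lncRNA gene that holds a listed region is a place where the authors' list has a region for the tagged protein. The gene is not shown to be regulated by that protein.

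The members that bear most directly on the lncRNA genes themselves are those over a start of transcription. RefSeq windows that run from 250 bases before to 50 after an annotated start exist for 9291 of the 12324 autosomal lncRNA genes used. A listed region of any class overlapped such a window in 21 of these genes (0.226%), against 19 of 16456 protein-coding genes with a window (0.115%). Members made up 9 of the overlapping regions, at 11 windows of 10 lncRNA genes. The other 11 lncRNA genes had a region whose midpoint lay outside the lncRNA gene or inside a protein-coding one. Starts under a member were thus few in number. The windows are short, and their share of lncRNA-only sequence was not computed. Whether members lay at starts less or more often than elsewhere therefore cannot be read from this count.

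The following windows are shown because each is the start of a lncRNA gene under a member, 5′ to 3′ on the strand of the gene, with the bases covered by the region in capitals and RefSeq (GRCm38.p6) as the source. Gm41331 and Gm40468 had the highest scores of the 9, Gm40723 the next, and LOC115488814 is added because it shares sequence with Gm40468. The windows are chr15:60141661-60141960 on the plus strand for Gm41331, chr8:20261150-20261449 on the minus strand for Gm40468, chr17:6599346-6599645 on the minus strand for LOC115488814 and chr10:83343845-83344144 on the plus strand for Gm40723.
Gm41331: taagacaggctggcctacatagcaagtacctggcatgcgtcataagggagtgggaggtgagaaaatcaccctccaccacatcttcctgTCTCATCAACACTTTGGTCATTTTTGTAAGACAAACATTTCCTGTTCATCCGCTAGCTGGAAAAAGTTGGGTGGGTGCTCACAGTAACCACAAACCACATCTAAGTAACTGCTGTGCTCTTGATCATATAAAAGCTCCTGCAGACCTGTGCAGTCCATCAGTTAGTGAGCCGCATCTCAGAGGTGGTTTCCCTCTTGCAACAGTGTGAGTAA
Gm40468: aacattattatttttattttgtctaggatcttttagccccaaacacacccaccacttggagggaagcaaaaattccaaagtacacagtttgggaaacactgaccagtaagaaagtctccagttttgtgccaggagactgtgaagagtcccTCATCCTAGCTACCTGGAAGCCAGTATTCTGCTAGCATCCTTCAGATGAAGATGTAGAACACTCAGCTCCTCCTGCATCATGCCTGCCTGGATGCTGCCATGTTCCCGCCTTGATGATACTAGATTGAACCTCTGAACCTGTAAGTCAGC
LOC115488814: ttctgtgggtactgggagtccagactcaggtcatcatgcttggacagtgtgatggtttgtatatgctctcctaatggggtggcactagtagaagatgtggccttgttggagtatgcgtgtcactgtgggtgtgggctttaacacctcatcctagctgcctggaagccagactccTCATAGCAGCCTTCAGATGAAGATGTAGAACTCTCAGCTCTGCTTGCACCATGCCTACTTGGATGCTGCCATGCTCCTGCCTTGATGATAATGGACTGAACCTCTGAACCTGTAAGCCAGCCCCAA
Gm40723: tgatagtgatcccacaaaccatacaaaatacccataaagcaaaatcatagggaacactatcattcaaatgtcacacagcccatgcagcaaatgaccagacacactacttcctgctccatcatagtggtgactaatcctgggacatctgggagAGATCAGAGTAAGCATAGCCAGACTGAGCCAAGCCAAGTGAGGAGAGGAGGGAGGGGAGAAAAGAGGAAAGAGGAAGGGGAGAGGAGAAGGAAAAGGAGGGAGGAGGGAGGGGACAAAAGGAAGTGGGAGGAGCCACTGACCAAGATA

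The Gm41331 region (chr15:60141749-60141996, score 186, 248 bp) covered 212 of the 300 bases of this window, and its midpoint fell just before the annotated start (position -0.038 kb, with the start at 0). The Gm40468 region (chr8:20261067-20261299, score 124) covered 150 bases, with its midpoint 0.0155 kb after the start. It lies in a crowded 1 Mb window, from 20 to 21 Mb of chromosome 8, with 76 regions of the whole list. In Gm40723 (chr10:83343997-83344596, score 57) the covered 148 bases are a run of mostly A and G. The lncRNA genes Gm29688 (score 50), Gm31179 (44), Gm33370 (34), LOC115488814 (20), 1700054A03Rik and Gm30234 (1 region between them, 18) and Gm46429 (11) also had a member over a start. The 2 strongest therefore lay among the upper scores of the list, and the others ran down to its lower end.

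Gm40468 and LOC115488814, on different chromosomes, held a common run of 22 bases, and 14 words of 15 bases occurred in both. Of the 53 pairs of windows compared, this was the only one with a shared word. The comparison was made after the sequences were seen. At least 5 of the words under the LOC115488814 region also occurred in 105 of 31395 other autosomal windows (0.334%), and the same holds for 77 windows (0.245%) with the Gm40468 region. Whether these windows hold the words common to both genes was not counted. Repeat annotation was not used here. Some short words reported for Zscan4 binding were searched on both strands. TGCACAC was in none of the 11 windows and in 5.32% of all autosomal lncRNA windows. TGTGTGTG was in none of the 11 and in 5.15% of lncRNA windows. At such shares, none among 11 windows is a likely count, so it shows no lack of either word. The first word read on its other strand overlaps with the second in TG repeats, and a window without them says nothing of the rest of the region.

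Across the whole set, lncRNA-only regions made up 7.78% of the autosomal regions (95% Wilson interval 7.05 to 8.57%), against 42.8% in protein-coding genes and 47.0% in no gene. Set against the sequence available, there were 2.17 regions per Mb over 171 Mb of lncRNA-only sequence (95% exact Poisson interval 1.95 to 2.40). Protein-coding genes had 2.07 per Mb (1.98 to 2.17) and sequence outside genes 1.84 per Mb (1.76 to 1.92). The rate in lncRNA genes thus lay above that outside genes, with intervals just apart, and overlapped with that of protein-coding genes. The lengths keep assembly gaps, whose share in each class was not computed, and the intervals treat regions as independent. Without chromosomes 1 and 8, where lncRNA-only regions were densest, the rates were 1.95, 1.90 and 1.72 per Mb in the same order. Intervals were not computed for this subset, so a rate apart from that outside genes is not shown there.

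The scores of the regions in lncRNA genes were modest. Their median was 29 (interquartile range 18 to 47, range 10 to 1673), against 32 in protein-coding genes (22 to 50) and 33 outside genes (22.5 to 57). The 95% binomial interval of the lncRNA-only median, 27 to 32, reached the protein-coding median. The score is a number the authors gave to each region. Its scale is unknown here, and it serves only to order regions within this list. Scores of at least 100 occurred in 26 regions (7.03%, 95% Wilson interval 4.84 to 10.1%), against 8.54% in protein-coding genes (7.40 to 9.83%) and 11.9% outside genes (10.6 to 13.3%). The first 2 intervals overlapped. Of the 50 highest of the list, 2 were lncRNA-only (4.0%), against 7.44% of the whole list, a count too small to set the shares apart.

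The share of lncRNA-only regions fell step by step from weak to strong regions. It was 9.41% among autosomal regions of score 10 to 22 (114 of 1212, 95% Wilson interval 7.89 to 11.2%), 7.92% from 23 to 32, 7.40% from 33 to 54 and 6.31% at 55 and above (73 of 1157, 5.05 to 7.86%). The intervals of the lowest and the highest range lay just apart. Per Mb, lncRNA-only sequence had 0.668 regions in the lowest range (exact Poisson interval 0.551 to 0.802), against 0.532 (0.488 to 0.580) in protein-coding genes and 0.460 (0.423 to 0.500) outside genes. In the middle ranges it was 0.551 and 0.521 in lncRNA-only sequence, against 0.537 and 0.548 in protein-coding genes and 0.449 in both ranges outside genes. There the lncRNA-only intervals, 0.445 to 0.674 and 0.419 to 0.642, overlapped with 0.412 to 0.488 outside genes. In the highest range the order was turned round, with 0.428 per Mb (0.335 to 0.538) in lncRNA-only sequence, 0.457 in protein-coding genes and 0.482 (0.444 to 0.523) outside genes, where the intervals overlapped. The rate in lncRNA genes was thus above that outside genes in every range below 55, but with intervals apart only from 10 to 22. In that lowest range its interval still overlapped with that of protein-coding genes. At 55 and above the rate was not above that outside genes.

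**Figure D1:**
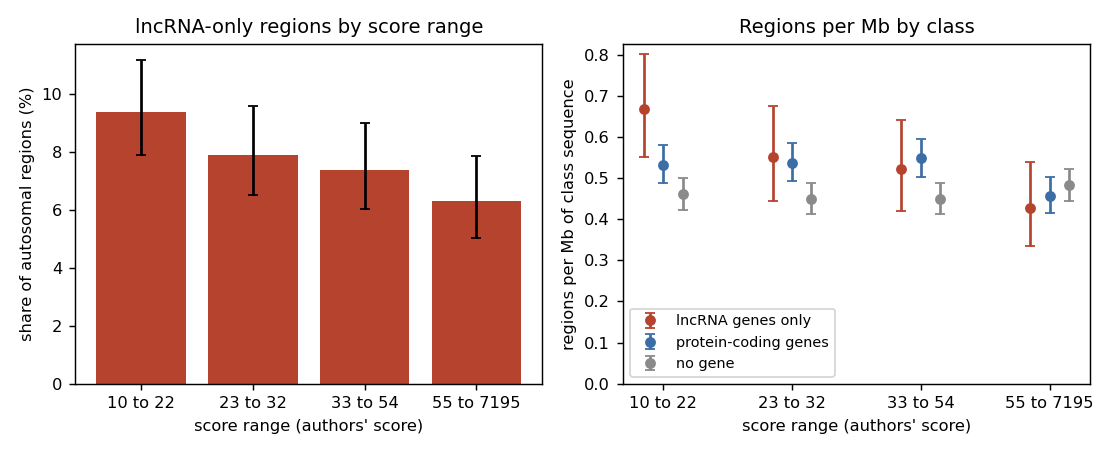
Left, share of autosomal regions that lie in lncRNA genes only (%), by range of the authors' score; bars are shares and lines 95% Wilson intervals. Right, regions per Mb of sequence in lncRNA genes only, in protein-coding genes and outside genes, with 95% exact Poisson intervals. The share steps down from 9.41% to 6.31%, and the lncRNA rate lies above the other classes in the lowest range and below them in the highest. The lncRNA interval lies apart from that outside genes in the lowest range only.

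Most of these regions were narrow. The median width was 295 bp (interquartile range 243 to 405 bp), against 296 bp (244 to 421 bp) in protein-coding genes and 319 bp (250 to 518 bp) outside genes, and 190 of the 370 were under 300 bp. Wider than 1000 bp were 5 regions (1.35%, 95% Wilson interval 0.579 to 3.12%), against 3.24% in protein-coding genes (2.55 to 4.10%) and 3.89% outside genes (3.16 to 4.77%). The 26 regions of score 100 or more had a median width of 582 bp, against 287 bp for the other 344. Among these 26, 15 were wider than 500 bp and 9 narrower than 300 bp, so that high scores came with both shapes. Score and width were weakly related over the 370 regions (Spearman's rho 0.192) and somewhat more over the 4389 other autosomal regions (0.335), as a description over regions of 1 library.

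**Figure D2:**
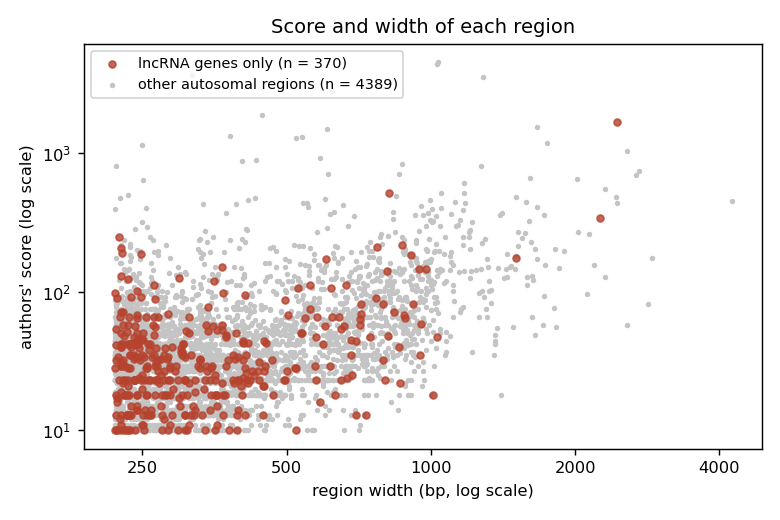
Authors' score against region width in bp (both axes logarithmic); each point is 1 autosomal region, 370 in lncRNA genes only and 4389 others. Most lncRNA-only regions lie under 500 bp, and the 3 widest, 1504 to 2442 bp, all have scores above 100.

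The strongest region lay in 2700054A10Rik, a lncRNA gene of 67.1 kb on chromosome 17, with a score of 1673 (chr17:13550680-13553121). At 2442 bp it was also the widest, it ranked 16 in the whole list, and its midpoint lay 2.19 kb downstream of the annotated start. Gm30821 followed, at 118 kb a long gene on chromosome 18, with a score of 515 (chr18:68691058-68691876). Mup-ps15, annotated as lncRNA although named as a pseudogene of the major urinary proteins, which carry pheromones in mouse urine, had a region of 2258 bp with a score of 339 (chr4:61685860-61688117). After these 3 the scores came down to 250 in Gm46595 (chr17:70963663-70963885, 223 bp) and stayed close together.

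Scores from 147 to 216 were held by 11 further regions. Gm30340, a gene of 470 kb on chromosome 3, had 216, and Gm40468 on chromosome 8 had 212. Snhg14 had 207, Gm35223 had 190, Gm41331 had 186 and Gm27166 had 184. Gm31227 had 174 over 1504 bp, the third widest of all. Gm37323 had 172 (chr1:4559777-4560379), and the protein-coding gene nearest to that region, at 62.7 kb, was Sox17, an endoderm transcription factor. Gm30212 had 151, and 4932441J04Rik and Gm41964 had 147 each. The other wide regions had low scores: 47 in Gm32663 (1030 bp) and 18 in Gm16090 (1012 bp).

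Protein-coding neighbours of the strong regions were varied. The region of 2700054A10Rik lay 164 kb from the nearest one, Tcte2, and that of Gm27166 lay 284 kb from Ets1, a transcription factor of blood and vessel cells. Over all 370 regions the distance to the nearest protein-coding gene had a median of 34.0 kb (interquartile range 12.9 to 106 kb), against 28.7 kb (9.33 to 108 kb) for regions in no gene. Within 5 kb of a protein-coding gene lay 32 regions (8.65%), 88 lay at 100 to 500 kb and 10 beyond 500 kb. The closest was in 4930557K07Rik, 0.258 kb from Zfp384, and the farthest in Gm33860, 2114 kb from Pik3c3.

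Most lncRNA genes held no member. Of the 9634 autosomal lncRNA genes with any sequence outside protein-coding genes, 333 held a member (3.46%), while 1646 of 20556 protein-coding genes held a region (8.01%). A further 2690 lncRNA genes lie wholly inside protein-coding genes and could not hold one. The genes with a member were long, with a median span of 30.7 kb (interquartile range 13.2 to 63.7 kb), against 8.69 kb for those without. The share with a member was 0.835% of genes under 5 kb, 2.59% from 5 to 20 kb, 7.94% from 20 to 100 kb and 16.3% (38 of 233, 95% Wilson interval 12.1 to 21.6%) above 100 kb, where span means the part outside protein-coding genes.

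The rate per Mb ran the other way. It was 3.35 per Mb in genes under 5 kb (29 regions, 95% exact Poisson interval 2.24 to 4.81). From 5 to 20 kb it was 2.66 (2.185 to 3.20), and from 20 to 100 kb 2.30 (1.99 to 2.65). Above 100 kb it was 1.12 per Mb (48 regions, 0.826 to 1.48), the only interval apart from the others. Here a region in overlapping lncRNA genes counts for each of them, which concerned 11 of the 370. LncRNA genes over 100 kb were thus more often hit but held fewer regions for their length. By kind of symbol, the rate was 2.24 per Mb in Gm genes (1.99 to 2.51) and 1.72 in Rik genes (1.31 to 2.22). It was 4.85 in the 135 genes whose symbol ends like that of an opposite-strand or overlapping transcript, from 12 regions in 9 genes (2.51 to 8.48). The ending also takes in other names such as Gas5, which held no region. The interval of this group just overlapped with that of Gm genes. It treats regions as independent, although the pairs in Atxn7l1os2 and Sox1ot lay only 0.824 and 0.923 kb apart.

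**Figure D3:**
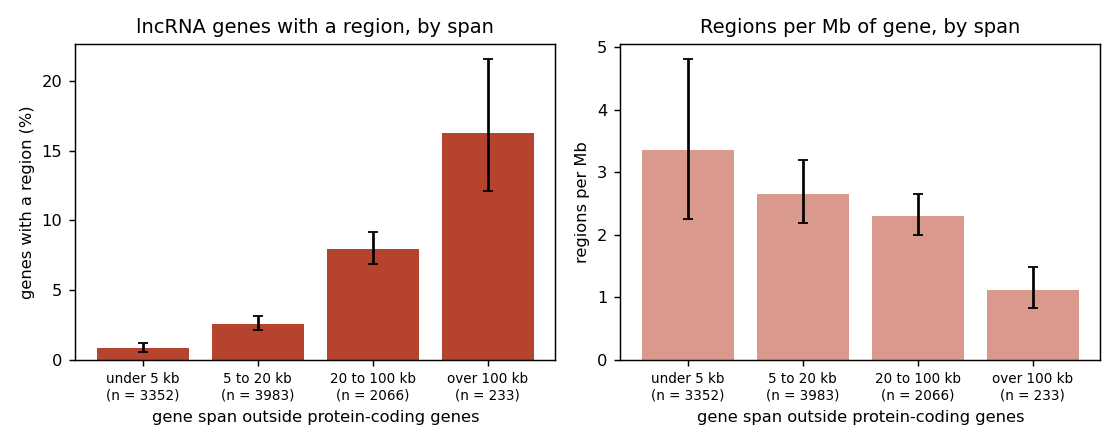
Left, share of lncRNA genes that hold at least 1 region (%), by the span of the gene outside protein-coding genes, with 95% Wilson intervals. Right, regions per Mb of the same genes, with 95% exact Poisson intervals. The share climbs from 0.835% to 16.3% with span while the rate comes down from 3.35 to 1.12 per Mb. Only the rate interval above 100 kb lies apart from the others.

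Of the genes named as opposite-strand or overlapping transcripts, which take their name from a protein-coding neighbour, Atxn7l1os2 (scores 47 and 33), Hectd2os (34 and 29) and Sox1ot (28 and 18) had 2 regions each. Cdrt4os2 (50), Brip1os (39), Banf2os (35), Map2k3os (33), Irx3os (18) and Fzd10os (10) had 1 each. Brip1 encodes a DNA helicase of DNA repair, Fzd10 a Wnt receptor, and Irx3 a homeobox transcription factor. The Irx3os region lay in the 1 Mb window of chromosome 8 from 91 to 92 Mb, which held 11 regions of the whole list, among them 1 lncRNA-only region.

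A list of 106 names of known lncRNAs was looked up, among them genes of imprinting, pluripotency and development. Autosomal lncRNA genes with sequence outside protein-coding genes made up 75 of these names. Of these 75, 4 held a member (5.33%, against 3.46% of all such lncRNA genes), at a median span of 8.29 kb against 8.06 kb for all. They were Snhg14 with 5 regions, Sox1ot with 2, and Tunar and Platr4 with 1 each. Tunar, which is needed for pluripotency and neural differentiation of mouse ES cells, had a region of score 42 (chr12:105372827-105373067), 36.0 kb downstream of its start. Platr4, a pluripotency-associated transcript, had one of score 18 (chr3:41492945-41493225) across 1 end of the gene, with its midpoint 0.115 kb inside. The Tunar score was above the whole list's median of 33 and the Platr4 score below it.

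Sox1ot overlaps the neural transcription factor gene Sox1, and its regions lay 0.923 kb apart (chr8:12416873-12417127, score 28, and chr8:12415876-12416279, score 18), 17.4 and 16.5 kb from Sox1. The other 71 genes of the list mostly lay far from any region, at a median of 206 kb (interquartile range 63.3 to 402 kb), against 172 kb (63.1 to 388 kb) for all 9301 lncRNA genes without a member. Within 10 kb of a region were 6 of the 71 (8.45%), against 5.54% of the 9301. These 6 were Chaer1, at 0.399 kb, Snhg12, at 3.01 kb, Mir124a-1hg, at 5.87 kb, Gas5, at 6.06 kb, Snhg1, at 7.11 kb, and Snhg15, at 8.17 kb. The list holds only what passed the authors' threshold, so absence from it does not show absence of binding.

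Repeated regions within 1 lncRNA gene were few. Of the 333 genes, 294 held 1 member, 34 held 2, 3 held 3 and 2 held 5. The genes with several were picked by that number, so their values are a description. Snhg14 spans 1177 kb on chromosome 7 (chr7:59272737-60450177), is transcribed from the paternal allele of the Prader-Willi and Angelman imprinted domain, hosts clusters of small nucleolar RNAs (snoRNAs) and runs antisense to the ubiquitin ligase gene Ube3a. Its 5 regions had scores of 207, 90, 54, 39 and 14 at chr7:59760850-59761075, chr7:59736807-59737027, chr7:59879357-59879576, chr7:59768594-59768860 and chr7:59787086-59787431. They lay within 142 kb of each other in the middle of the gene. At the rate of lncRNA-only sequence, its 672 kb outside protein-coding genes would hold 1.46.

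All 5 Snhg14 regions lay close to a snoRNA gene, 4 of them at 0.347 to 0.591 kb and 1 with its midpoint inside Snord116l8. Snhg14 holds 206 annotated snoRNA genes, and 59.2% of its sequence outside protein-coding genes lies within 1 kb of one, so such closeness is frequent there. The snoRNA copies are near-identical repeats, and how reads that match several copies were placed is not stated in the labels. Outside Snhg14, 2 other members lay within 2 kb of a small RNA gene, both transfer RNA genes: 4930557F10Rik (score 39) near n-TVcac11 and Gm32525 (score 10) near n-TAagc18.

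Gm51421, a gene of 159 kb on chromosome 14, also held 5 regions, against 0.165 at the class rate for its 76.0 kb outside protein-coding genes. Their scores were 131, 89, 87, 22 and 21, and they spanned 17.7 kb with gaps of 2.96 to 6.57 kb. They lie in a 1 Mb window from 5 to 6 Mb with 21 regions of the whole list. Gm30417 on chromosome 5 held 3 within 14.5 kb, with scores of 111, 71 and 42, among Speer genes, a rodent family of testis-expressed genes. Gm32663 on chromosome 10 had scores of 65, 47 and 17, and Gm30234 on chromosome 19 had 33, 23 and 18, each with a close pair and 1 region farther away.

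**Figure D4:**
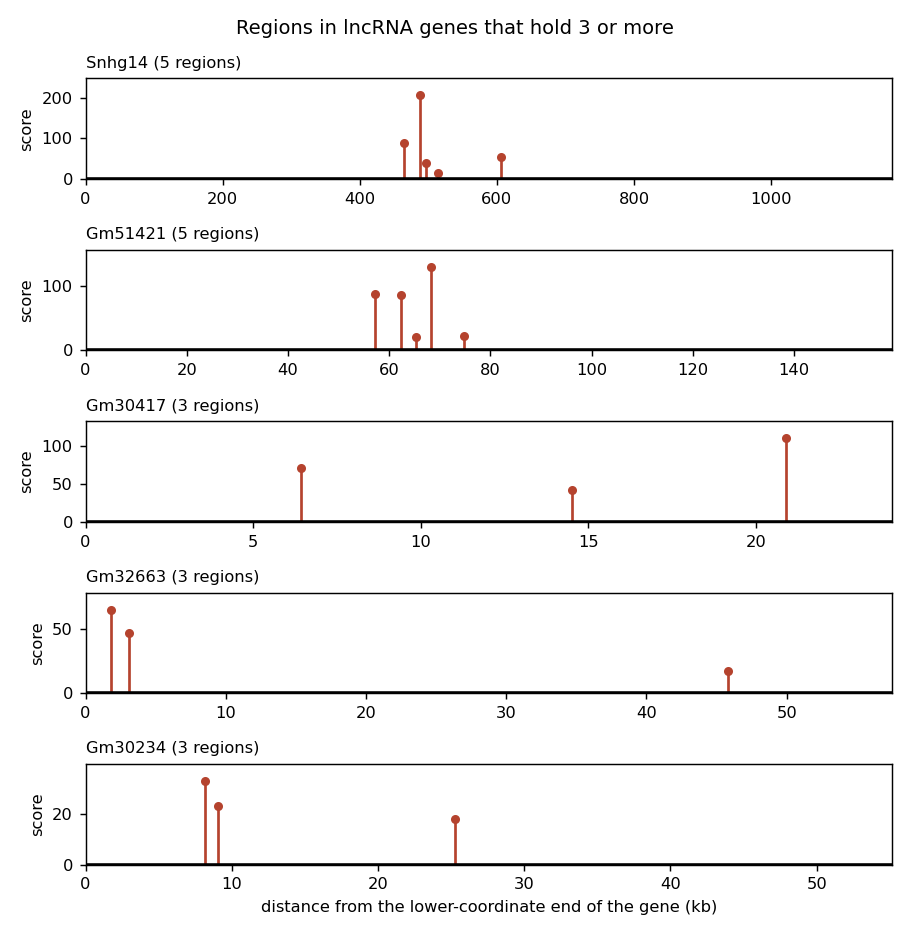
Authors' score of each region against its distance in kb from the lower-coordinate end of the gene, for the 5 lncRNA genes that hold 3 or more regions; each panel spans its whole gene. Regions of Snhg14 and Gm51421 bunch in the middle of the gene, within 142 and 17.7 kb.

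Among the 34 genes with 2 regions, the pair lay within 2 kb in 13 and within 10 kb in 17. Gm33458 is an example, with scores of 141 and 25 at 0.999 kb from each other, both just inside its start. Gm40468 held its pair of 212 and 124 within 1.61 kb, in a gene of 3.64 kb. The 1 Mb window of that pair held 76 regions of the whole list. Counting regions of every class, 58 of the 370 had a neighbour within 10 kb (15.7%, 95% Wilson interval 12.3 to 19.7%), against 13.6% of regions in protein-coding genes and 14.96% of those in no gene. With no other region within 100 kb were 170 (45.9%). Windows of 1 Mb with 10 or more regions held 22 of the 370 (5.95%, 3.96 to 8.84%), against 6.38% of those in protein-coding genes and 5.85% of those in no gene, and 8 of the 22 lay on chromosome 14.

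Along the gene, the regions were spread from start to end. Among the 289 whose longest lncRNA gene has a known strand, 52, 50, 68, 55 and 64 lay in the 5 equal stretches of the gene, counted from its start, with shares between 17.3 and 23.5% and overlapping Wilson intervals. Of the 292 with an annotated start in the window table, 24 lay within 1 kb of it (8.22%, 95% Wilson interval 5.58 to 11.9%), 95 lay at 20 to 100 kb and 16 beyond 100 kb. Within 1 kb of either end of a lncRNA gene lay 49 of the 370 (13.2%, 10.2 to 17.1%), while such positions make up 9.96% of lncRNA-only sequence, a value just under that interval. Among the 73 regions of score 55 or more the share was 9.59%, which is not above the 9.96%.

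The highest scores at gene ends were those of Gm41331 (186), Gm33458 (141) and Gm40468 (124), all at the start. Next came Gm35941 (120) and Gm17767 (102), both at the end away from the start. The Gm35941 region lay 0.89 kb from that end and 15.7 kb from Smad3, a transducer of TGF-beta signals. Gm20139 (66), Gm40723 (57), Gm29688 (50), Gm40156 (50) and Gm40044 (43) completed the first 10. Gm20139 and Gm40156 also had their region at the end away from the start. Exons and introns were not analysed here.

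By chromosome, lncRNA-only sequence had most regions per Mb on chromosome 8, with 3.99 (35 regions, 95% exact Poisson interval 2.78 to 5.54), and on chromosome 1, with 3.54 (42 regions, 2.55 to 4.78). The other 17 autosomes lay between 1.19 and 3.09 per Mb with a median of 1.87. Chromosome 7 was the highest of these, with 31 regions, 5 of them in Snhg14. Chromosome 18 was the lowest with 9, yet it held the second highest score. The share of a chromosome's regions that were lncRNA-only was 7.59% on chromosome 8 and 8.59% on chromosome 1, near the 7.78% of all autosomes, and it ran from 4.08% on chromosome 9 to 12.2% on chromosome 7 (95% Wilson interval 8.70 to 16.7%). Chromosomes 1 and 8 also held the most autosomal regions of every class together, with 489 and 461. Copy number and read mapping were not measured, so their part in these rates was not tested.

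**Figure D5:**
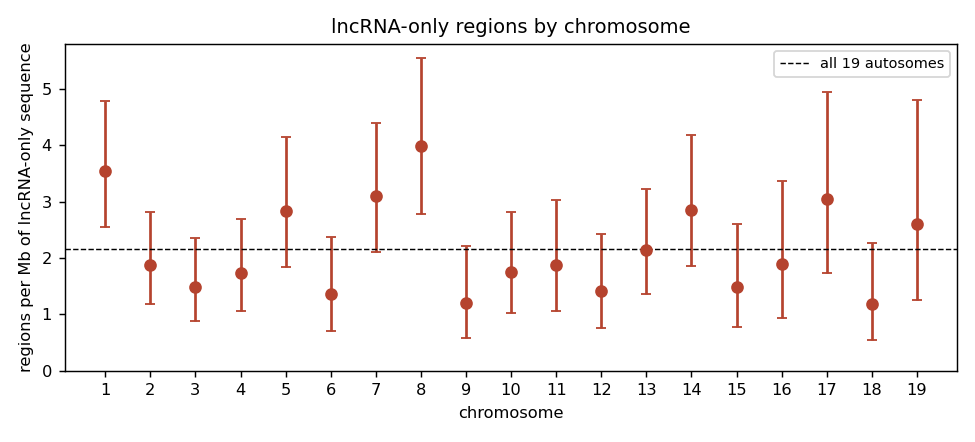
Regions per Mb of lncRNA-only sequence on each autosome, with 95% exact Poisson intervals; the dashed line is the rate over all 19 autosomes, 2.17 per Mb. Chromosomes 1 and 8 lie above the line with their whole interval, and the intervals of the other 17 include it.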

How the data were processed

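Each region carries a score, deposited as a whole number of unstated scale. Positions, deposited counting from 0, are printed counting from 1. Per the submitters' processing notes the build was mm10 and the tools were MACS2, Bowtie2, deepTools and cutadapt; versions and roles are not given. The labels tie the list to 1 sample. Genes came from the RefSeq table of GRCm38.p6, leaving out 328 autosomal genes that start before 3000000, where no sequence is assembled. Each autosomal region took 1 class from its midpoint, in the order protein-coding, lncRNA, pseudogene, other, none. Class lengths keep assembly gaps. Strand came from the RefSeq promoter windows. Shares have 95% Wilson and rates 95% exact Poisson intervals, which treat regions as independent. No test was run, since 1 list has no replicate. Classification was tested on simulated data. Python 3.11.15, SciPy 1.17.1 and pandas 2.3.3 were used.

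Genes were named by rule: those of the 15 highest scores, those with 3 or more members, those on the list of known lncRNAs, those of the 10 highest scores at gene ends, those of the 5 widest members, and those with a member over a start. Opposite-strand genes, pairs, neighbours and extremes of distance were named after their values were seen. The members, lists and alternatives were chosen with earlier results of these data known.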

Additional observations from a re-analysis of the deposited data

How the results depend on the processing

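Of 39 recomputed values, 23 stayed within the main value's 95% interval or, where it has none, within 1.5 times of it. Using the 2510 regions of score 33 or more left 162 members in 153 lncRNA genes, at 0.949 per Mb, with a median score of 50 and 11.7% with a neighbour within 10 kb. Using the 1252 regions of score 55 or more left 73 members in 69 genes, at 0.428 per Mb, with a median score of 82, a median width of 368 bp, 9.59% at gene ends and 9.59% with a neighbour. These subsets hold fewer and stronger regions by construction. The share with a neighbour was 12.1% without windows of 1 Mb that hold 10 or more regions, 10.0% with regions within 1 kb merged and 54.1% when neighbours within 100 kb counted. The share at gene ends was 44.1% within 5 kb. The number of members was 376 by overlap of at least 1 bp, 338 with protein-coding genes widened by 5 kb and 364 without those also in a pseudogene or small RNA gene. Leaving out chromosomes 1 and 8, an alternative added after earlier results were known, gave 293 members. No paired analysis was possible because every group has 1 sample. Depth is unknown, so what weaker binding the list misses cannot be given.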
